A study of Mus musculus with 27 samples.

Results

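The cardiac transcription factors examined here are Nkx2-5, Tbx5, Tbx20, Isl1, Hand1, Hand2, Mef2c, Gata4, Gata6 and Smyd1, which regulate the first and second heart fields of the mouse embryo. They were chosen by gene symbol from the RNA-Seq count table, and all 10 were found among its 24065 genes. RNA-Seq was performed on whole E8.5 mouse embryos of the C57BL/6J strain, with 3 wild type (WT) and 3 Dnmt3b-/- littermates and 1 library for each embryo. DNMT3B is an enzyme that adds methyl groups to CpG sites that were not methylated before. The Dnmt3b-/- embryos came from crosses of heterozygous parents, whose mutant allele was made by recombining a loxP-flanked Dnmt3b gene with an ACTB-Cre deleter line, and the mutation is described as one that inactivates the catalytic activity. The comparison asks how the loss of DNMT3B activity affects transcript levels in the embryo. The methylation libraries of the series were not analysed here.

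The heart is the first organ to work in the embryo and is built from mesoderm that turns into cardiac muscle under the control of a small network of transcription factors. Cells of the first heart field form the early heart tube and much of the left ventricle, whereas cells of the second heart field are added later to the outflow tract, the right ventricle and the atria. NKX2-5, GATA4 and TBX5 bind to each other and activate genes of the contractile apparatus, ISL1 marks progenitors of the second heart field, HAND1 and HAND2 act mostly in the left and right ventricle, and MEF2C activates muscle genes in both. SMYD1 is a methyltransferase restricted to muscle, whose gene is a target of MEF2C and which is required for Hand2 expression in the heart. Several of these genes are also active outside the heart, such as Gata4 and Gata6 in extraembryonic endoderm, Hand1 in extraembryonic mesoderm and trophoblast, Hand2 and Mef2c in branchial arch or neural crest tissue, and Isl1 in motor neurons and pharyngeal endoderm.

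Among the 10 cardiac factors, Hand2, Mef2c and Smyd1 rose in Dnmt3b-/- embryos by 1.45 to 1.63-fold and Nkx2-5 fell by a factor of 1.73. These were the genes with an adjusted p below 0.05 in the quasi-likelihood test of edgeR, and the other 6 did not pass it. The 3 that rose compare with 17.6% of all 15114 tested genes that were higher at this threshold, and the 1 that fell compares with 18.1% that were lower. With edgeR, DESeq2 and limma on all 6 embryos and no correction for base composition, 0 of the 10 passed the threshold together with a fold change above 2, and 0 did so at an unadjusted p below 0.05 in edgeR. In all tested genes 5.90% passed both thresholds. The median log2 fold change of the 10 factors was 0.17, beside -0.029 over all tested genes.

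DNMT3B acts on CpG sites, and 6 of the 10 factors have promoter windows in the RefSeq promoter sequences used here (Nkx2-5, Tbx20, Isl1, Hand2, Mef2c and Smyd1), whereas Tbx5, Hand1, Gata4 and Gata6 have none there. The 250 bases before the transcription start of the factor that fell and of the 2 that rose most are shown to compare their CpG sites, in the direction of the gene and from 5′ to 3′, with each CG dinucleotide in capitals. They lie on the minus strand at chr17:26841566-26841815 for Nkx2-5, on the plus strand at chr8:57320733-57320982 for Hand2 and on the minus strand at chr6:71262282-71262531 for Smyd1 (GRCm38.p6, the mm10 build).
Nkx2-5: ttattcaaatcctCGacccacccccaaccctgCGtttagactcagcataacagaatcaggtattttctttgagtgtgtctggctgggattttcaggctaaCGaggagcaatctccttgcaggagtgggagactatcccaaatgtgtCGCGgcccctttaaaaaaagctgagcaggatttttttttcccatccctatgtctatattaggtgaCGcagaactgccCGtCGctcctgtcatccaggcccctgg
Hand2: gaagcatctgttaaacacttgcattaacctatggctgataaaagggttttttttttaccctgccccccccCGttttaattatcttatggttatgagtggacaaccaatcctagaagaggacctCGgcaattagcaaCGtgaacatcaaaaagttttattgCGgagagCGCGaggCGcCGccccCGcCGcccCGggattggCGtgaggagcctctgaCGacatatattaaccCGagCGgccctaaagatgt
Smyd1: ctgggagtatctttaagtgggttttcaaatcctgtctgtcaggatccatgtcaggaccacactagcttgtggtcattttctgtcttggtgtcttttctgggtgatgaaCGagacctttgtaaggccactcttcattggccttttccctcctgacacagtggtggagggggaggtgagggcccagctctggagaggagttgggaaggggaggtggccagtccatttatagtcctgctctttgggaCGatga

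The Hand2 window holds 15 CG dinucleotides and the Nkx2-5 window 8, whereas the Smyd1 window holds 2. The number of CG dinucleotides over the number that the base content gives was 0.993, 0.535 and 0.126 in these windows. Over the 32851 promoter windows of this length the medians were 6 CG dinucleotides and a ratio of 0.374. The Isl1 window, with 33 CG dinucleotides and a ratio of 1.05, and the Tbx20 window, with 22 and 0.749, were the densest of the factors. The 3 start sites of Mef2c had 1, 6 and 4 CG dinucleotides and ratios of 0.149, 0.484 and 0.261. The windows of the 3 factors that rose thus lay on both sides of the medians of all windows. The letters AGATAA, which GATA factors bind, occurred on either strand in the Hand2 window and in 9.99% of all windows. The letters TNAAGTG, which NKX2-5 binds, occurred in the Smyd1 window and in 10.1% of all windows. A CANNTG element, the E-box bound by HAND proteins and their partners, was present in the Nkx2-5, Hand2 and Isl1 windows and at 2 of the 3 Mef2c starts, beside 66.2% of all windows. The T-box letters AGGTGT were found at 1 Mef2c start and in 11.8% of all windows, and matches to the MEF2 site and the CArG box were found in 0 of the windows of the factors, beside 2.92% and 1.47% of all windows. None of these matches overlapped a match to another of the motifs searched, and a match describes letters, not binding.

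Levels per transcript length were compared as FPKM, the fragments scaled to exon length and library size, computed from the raw counts. In WT embryos Hand2 was the most abundant factor with 10.9 ± 1.27 FPKM (SD, n = 3), followed by Gata6 (9.62 ± 0.693), Tbx20 (9.09 ± 1.70), Gata4 (9.05 ± 2.19), Smyd1 (8.04 ± 1.90) and Mef2c (7.11 ± 0.229). Lower FPKM levels were measured for Isl1 (5.91 ± 0.656), Hand1 (5.88 ± 1.64) and Nkx2-5 (4.49 ± 0.371), and Tbx5 was the lowest with 1.85 ± 0.298 FPKM. The ranges of neighbours in this order overlapped except Mef2c against Isl1 and Nkx2-5 against Tbx5. Overlap of ranges does not compare 2 genes within the same embryo. Hand2 was above Gata6 in each WT embryo, but in WT embryo 2 Gata4 and Tbx20 were above Hand2 (11.4 and 11.0 against 10.9 FPKM). In Dnmt3b-/- embryos Hand2 stood alone at the top with 15.3 to 18.0 FPKM, above the 10.3 to 13.9 FPKM of Smyd1, and Mef2c followed with 9.16 to 10.7 FPKM. Gata4 moved from rank 4 to rank 8 of the mean FPKM levels, while Nkx2-5 and Tbx5 remained at ranks 9 and 10. The 2.8 to 7.37 FPKM of Gata4 in Dnmt3b-/- embryos overlapped the ranges of Gata6, Tbx20, Hand1 and Isl1 above it.

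Hand2 encodes a basic helix-loop-helix factor needed for the right ventricle and the branchial arches and lies at chr8:57320983-57324517 on the plus strand. WT embryos 1, 2 and 3 had 1261, 1161 and 1007.5 normalized read counts of Hand2, against 1720.1, 1688 and 2044 for Dnmt3b-/- embryos 1, 2 and 3. Every Dnmt3b-/- embryo was above every WT embryo. Hand2 rose by 0.67 on the log2 scale (SE 0.12, 95% confidence interval 0.39 to 0.95, adjusted p = 0.00428). Hand2 passed the test in each of the 15 alternative analyses, where its log2 fold change ranged from 0.58 to 1.34.

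Mef2c encodes a MADS-box factor of cardiac, skeletal and vascular muscle and neural crest derivatives and spans chr13:83504034-83667079 on the plus strand. It had 2419, 2333 and 2380.2 normalized read counts in WT against 3224.5, 3773 and 3334 in Dnmt3b-/- embryos. The WT embryos were nearly identical, with a coefficient of variation of 1.81%, and all Dnmt3b-/- embryos lay above them. Mef2c rose by 0.53 on the log2 scale (SE 0.08, 95% confidence interval 0.35 to 0.72, adjusted p = 0.0020).

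Smyd1 lies at chr6:71213940-71262281 on the minus strand. Its normalized read counts of 1479, 942 and 1359 in WT stood against 1651, 2312 and 2203 in Dnmt3b-/- embryos. The groups did not overlap, although WT embryo 1 and Dnmt3b-/- embryo 1 were close to each other. Smyd1 rose by 0.70 on the log2 scale (SE 0.19, 95% confidence interval 0.27 to 1.14, adjusted p = 0.0206). Without Dnmt3b-/- embryo 2 the adjusted p was 0.0824 and without Dnmt3b-/- embryo 3 it was 0.0649, with log2 fold changes of the same direction.

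Nkx2-5, the homeobox gene that marks cardiac progenitors from the cardiac crescent onwards, lies at chr17:26838665-26841565 on the minus strand. WT embryos had 326, 344.5 and 288.5 normalized read counts of Nkx2-5, against 149, 209 and 197 for Dnmt3b-/- embryos. The groups did not overlap, and every Dnmt3b-/- embryo was below every WT embryo. Nkx2-5 had a log2 fold change of -0.79 (SE 0.20, 95% confidence interval -1.24 to -0.34, adjusted p = 0.0149). Without WT embryo 1 the adjusted p was 0.0577. In whole embryos, fewer cells that express a gene and less RNA per cell cannot be told apart.

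Groups of embryos without overlap were found for 5 of the 10 factors, namely Hand2, Mef2c, Smyd1 and Isl1 with higher counts and Nkx2-5 with lower counts in Dnmt3b-/- embryos, beside 25.3% of all tested genes without overlap in the higher and 26.5% in the lower direction. The plot of normalized counts shows these 5 factors beside the 5 whose embryos overlapped.

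**Figure D1:**
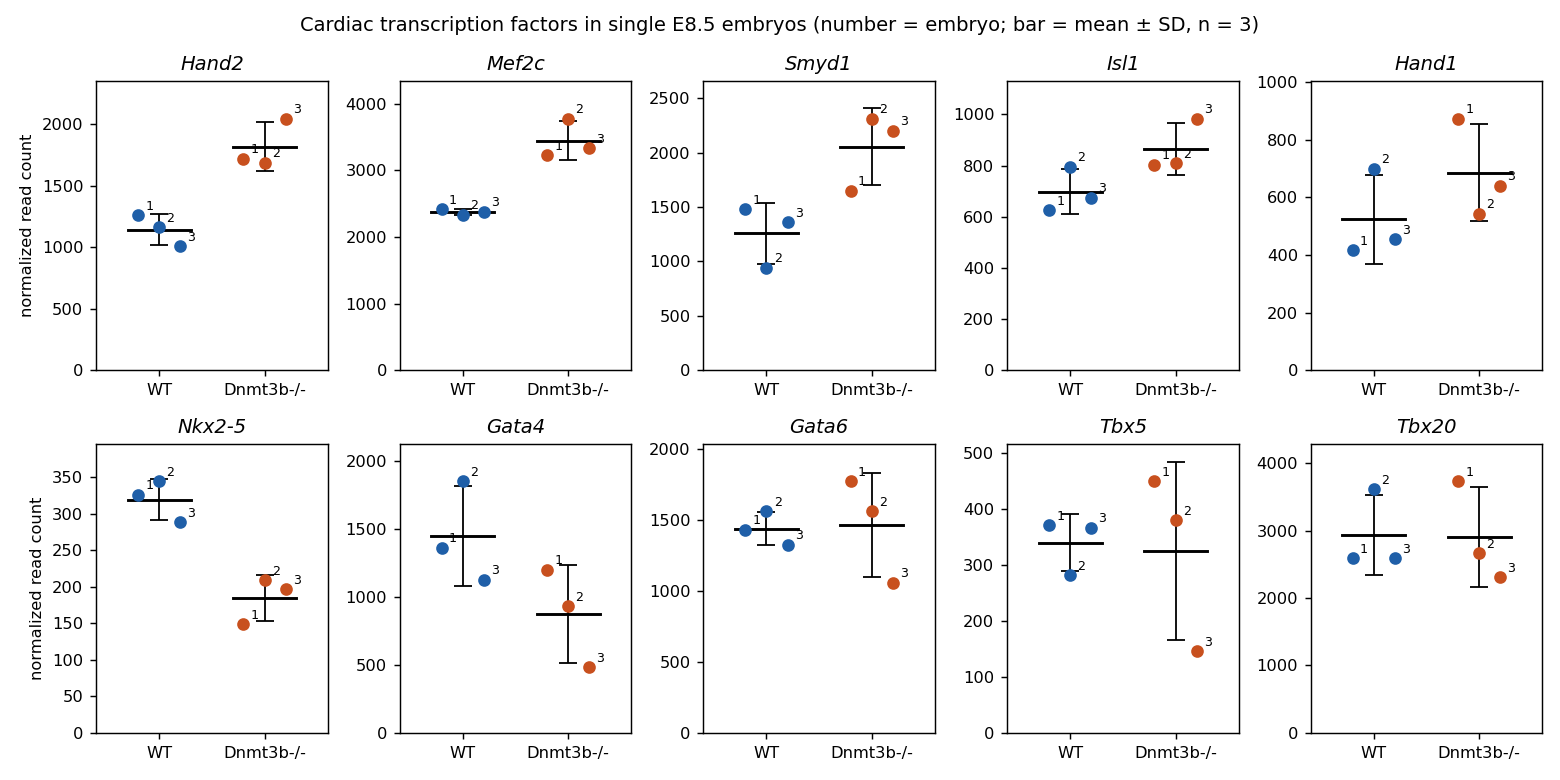
Normalized read counts (vertical axes, starting at 0) of the 10 factors in each of the 3 WT (blue) and 3 Dnmt3b-/- (orange) embryos, with the embryo number beside each point and bars for the mean ± SD. The Dnmt3b-/- embryos of Hand2, Mef2c, Smyd1 and Isl1 all lie above the WT embryos and those of Nkx2-5 all lie below, whereas the groups of Hand1, Gata4, Gata6, Tbx5 and Tbx20 overlap.

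Isl1, a LIM homeobox gene, had 625, 795.5 and 674 normalized read counts in WT and 803, 809.8 and 983 in Dnmt3b-/- embryos. WT embryo 2 nearly reached the Dnmt3b-/- embryos. Its log2 fold change of 0.31 (95% confidence interval -0.01 to 0.63) had an adjusted p of 0.117, and without WT embryo 2 it was 0.41 with an adjusted p of 0.0493. Hand1, which encodes the HAND factor of the left ventricle, had 416, 699 and 454 normalized read counts in WT and 872, 543 and 639.5 in Dnmt3b-/- embryos. WT embryo 2 was above 2 of the 3 Dnmt3b-/- embryos. Its log2 fold change of 0.39 (95% confidence interval -0.16 to 0.94) had an adjusted p of 0.240, and without WT embryo 2 it was 0.65 with an adjusted p of 0.0373. With WT embryo 2 left out, 5 of the 10 factors were higher at an adjusted p below 0.05, beside 17.0% of all tested genes in that fit, and Nkx2-5 remained lower.

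The 2 zinc finger factors of the GATA family had overlapping FPKM levels in WT embryos, and neither passed the edgeR test. Gata4, at chr14:63198914-63245271 on the minus strand, had 1362, 1847.5 and 1126 normalized read counts in WT and 1199.7, 929.6 and 485 in Dnmt3b-/- embryos. Dnmt3b-/- embryo 1 was above WT embryo 3, so the groups overlapped, and Dnmt3b-/- embryo 3 was far below all others. Gata4 had a log2 fold change of -0.73 (95% confidence interval -1.44 to -0.02, adjusted p = 0.101 with edgeR), whereas DESeq2 gave an adjusted p of 0.0279 and called 19.9% of all tested genes lower. Without Dnmt3b-/- embryo 1 the log2 fold change was -1.02 and the adjusted p with edgeR was 0.0482, which also put Gata4 past a fold change of 2. In that fit 2630 of all tested genes were lower at an adjusted p below 0.05, and 774 were also past a fold change of 2. Gata6 had 1429, 1559 and 1323 normalized read counts in WT and 1769, 1560.3 and 1058 in Dnmt3b-/- embryos. The Dnmt3b-/- values of Gata6 enclosed those of WT, and its log2 fold change was 0.03 (95% confidence interval -0.38 to 0.44, adjusted p = 0.925).

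The 2 T-box factors showed no difference larger than the spread between embryos. Tbx5, which patterns the left ventricle, the atria and the forelimb, had 371, 282 and 367 normalized read counts in WT and 449.5, 380.5 and 146 in Dnmt3b-/- embryos. Tbx20, required for growth of the heart tube, had 2592, 3616 and 2591 in WT and 3729, 2664 and 2306 in Dnmt3b-/- embryos. Their log2 fold changes were -0.06 (95% confidence interval -0.90 to 0.77, adjusted p = 0.909) and -0.02 (95% confidence interval -0.46 to 0.43, adjusted p = 0.960), so that the interval of Tbx5 does not exclude a change of nearly 2-fold. Among the Dnmt3b-/- embryos, embryo 1 was the highest and embryo 3 the lowest for Gata4, Gata6, Tbx5 and Tbx20, whereas embryo 3 was above embryo 1 for Isl1, Hand2, Mef2c, Smyd1 and Nkx2-5. For Tbx5 and Gata4 the coefficients of variation in Dnmt3b-/- embryos were 49.0% and 41.4%, beside 14.9% and 25.5% in WT embryos.

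The fold changes of all genes depended on the base composition of their exons, and the 10 factors span the range from 41.9% GC in Mef2c to 67.1% in Nkx2-5. The median log2 fold change fell from 0.39 in the tested genes with the lowest GC content (up to 42.0%) to -0.61 in those with the highest (from 58.4%), where 44.5% of genes were lower and 2.72% higher at an adjusted p below 0.05. Mef2c belongs to the lowest decile of GC content, and Nkx2-5 and Hand2 belong to the highest. The highest decile spans 58.4 to 73% with a median of 60.1%, so Nkx2-5 at 67.1% lies far above its middle. Hand2 was thus higher in Dnmt3b-/- embryos within a group of genes that was mostly lower, whereas Mef2c and Nkx2-5 moved in the direction of the genes with similar GC content. Relative to all genes of the highest decile, every WT library was high (median centred log2 levels of 0.35, 0.24 and 0.35) and every Dnmt3b-/- library was low (-0.15, -0.31 and -0.42), so that base composition and genotype cannot be told apart for a single gene.

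**Figure D2:**
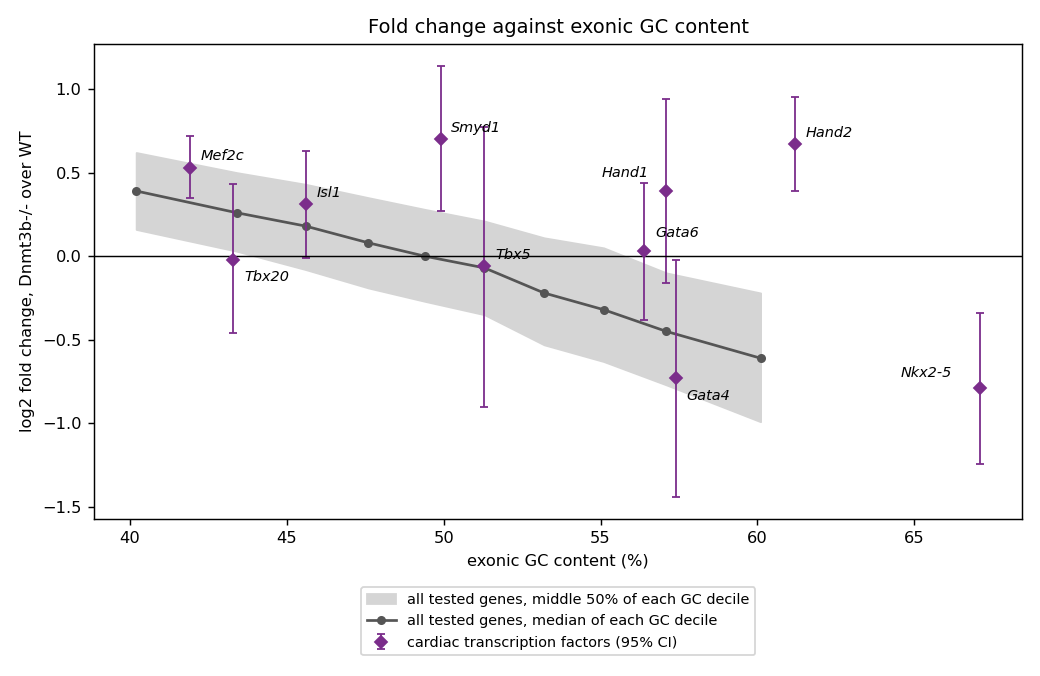
Log2 fold change of Dnmt3b-/- over WT (vertical axis) against the exonic GC content in percent (horizontal axis). The grey line joins the medians of the 10 GC deciles of all tested genes, the grey band holds the middle 50% of each decile, and the purple points are the 10 factors with 95% confidence intervals. The line and band end at 60.1% GC, the median of the highest decile, and Hand2 at 61.2% lies beyond that end at 0.67. Mef2c at 41.9% lies within the band.

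When GC content and exon length were regressed out of each library, Hand2 (log2 fold change 1.34, adjusted p = 0.00185), Hand1 (0.83, adjusted p = 0.0303) and Smyd1 (0.71, adjusted p = 0.0340) were higher, beside 12.4% of all tested genes, and Hand2 exceeded a fold change of 2. In that fit Nkx2-5 had a log2 fold change of 0.02 (95% confidence interval -0.49 to 0.52, adjusted p = 0.964) and Mef2c of 0.21 (95% confidence interval 0.03 to 0.40, adjusted p = 0.0912). Of the factors 0 were lower at an adjusted p below 0.05 in this edgeR fit, and 0 at an unadjusted p below 0.05, beside 1586 of the 15056 tested genes that were lower at the adjusted threshold. In either direction 22.9% of all tested genes passed it. Gata6 had a log2 fold change of 0.43 (adjusted p = 0.0591) and Gata4 of -0.28 (adjusted p = 0.486). Hand2 and Smyd1 were therefore higher with and without the correction, and the decrease of Nkx2-5 and the increase of Mef2c were called only without it.

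**Figure D3:**
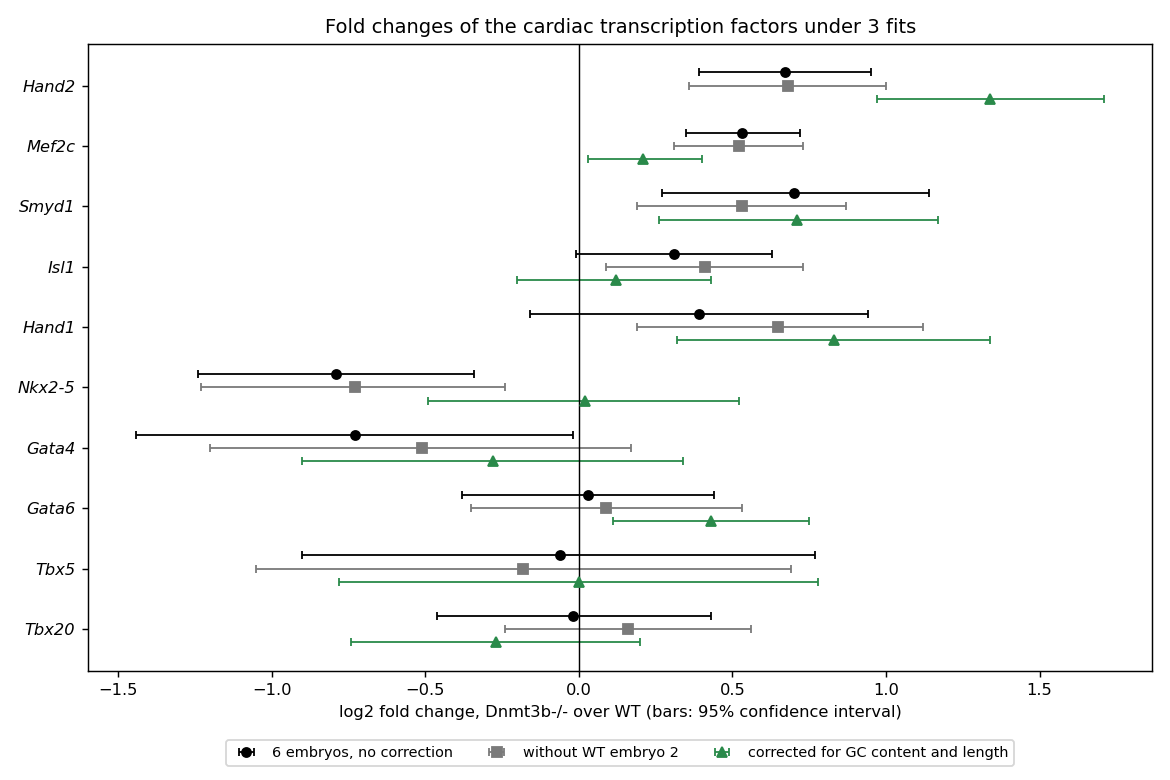
Log2 fold changes of the 10 factors (horizontal axis) with 95% confidence intervals from all 6 embryos (black), without WT embryo 2 (grey) and after correction for GC content and length (green). Hand2 and Smyd1 stay above 0 in all 3 fits, whereas Nkx2-5 moves from -0.79 to 0.02 after the correction.

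Ratios of raw counts within an embryo do not depend on how libraries were scaled. For 5 pairs, chosen after their values were seen, the ratios were compared by an exact two-sided permutation test, whose smallest possible p is 0.10 with 3 against 3 embryos and 0.25 after adjustment over the 5 pairs. The ratio of Nkx2-5 to Hand2 was 0.259, 0.297 and 0.286 in WT and 0.0865, 0.124 and 0.0962 in Dnmt3b-/- embryos. It was lower in every Dnmt3b-/- embryo, by a factor of 2.77 (exact permutation p = 0.10). Both genes lie in the highest GC decile, with exonic GC contents of 67.1% and 61.2%. The pair sets the factor that fell against 1 that rose, so its difference follows from the 2 gene results and adds no separate evidence. The ratio of Gata4 to Gata6 was 0.953, 1.19 and 0.851 in WT and 0.678, 0.596 and 0.458 in Dnmt3b-/- embryos. This ratio was also lower in every Dnmt3b-/- embryo, by a factor of 1.73 (exact permutation p = 0.10), and the exonic GC contents of the 2 genes are 57.4% and 56.4%. The ratios of Hand2 to Hand1, Tbx5 to Tbx20 and Nkx2-5 to Gata4 overlapped between the genotypes, with differences of 0.27, -0.18 and 0 on the log2 scale (exact permutation p = 0.50, 0.60 and 1).

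**Figure D4:**
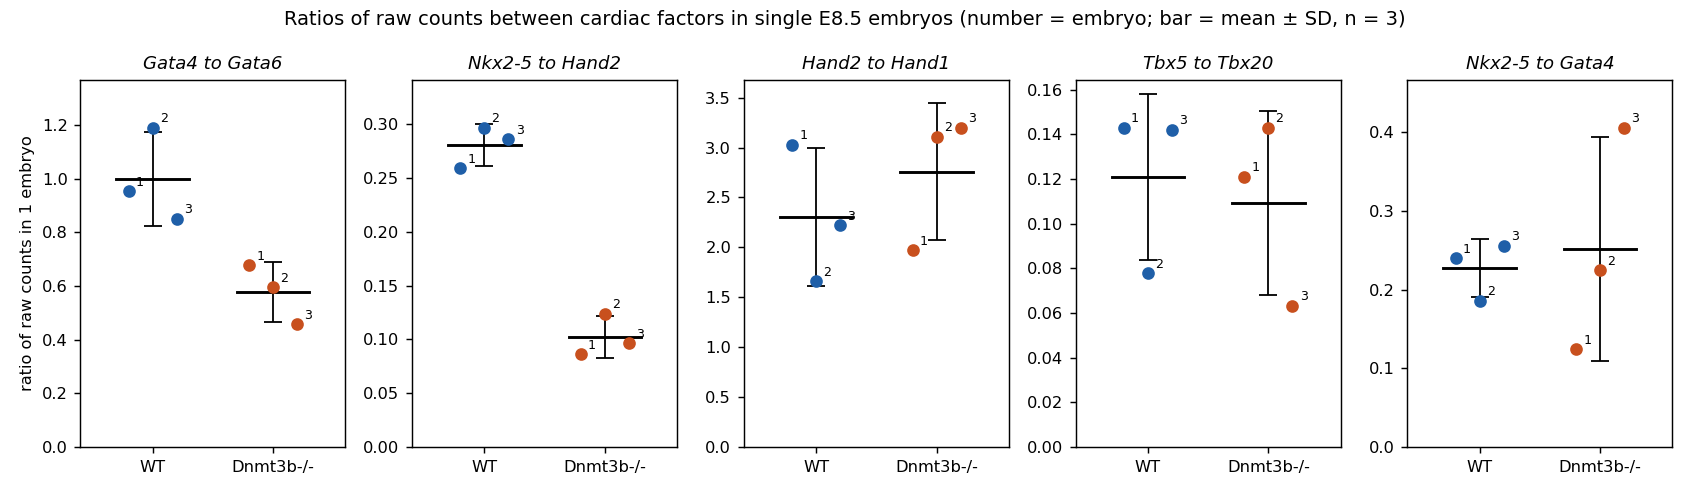
Ratios of raw counts between 5 pairs of factors (vertical axes, starting at 0) in each WT (blue) and Dnmt3b-/- (orange) embryo, with bars for the mean ± SD. The ratios of Gata4 to Gata6 and of Nkx2-5 to Hand2 do not overlap between the genotypes, and the other 3 ratios do.

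The raw counts summed to between 41489332 and 58470286 per embryo, and Dnmt3b itself had 6281 to 13959 normalized counts in WT and 4064 to 4740.9 in Dnmt3b-/- embryos (log2 fold change -1.04, adjusted p = 0.0169, and 0.0555 to 0.0613 with 1 Dnmt3b-/- embryo left out). The count covers the whole gene, and transcripts of a catalytically inactive allele can still be counted. The ribosomal transcript Rn45s took 0.984 to 2.03% of the counts in WT and 0.213 to 0.347% in Dnmt3b-/- libraries. WT embryo 2 stood apart, with the highest sum of 16 extraembryonic endoderm genes and the lowest sums of contractile and primitive erythroid genes. Its sums were also the lowest for neural crest and arch (4817), skeletal muscle and somite (3923), motor neuron (167) and posterior Hox genes (4085). For foregut endoderm genes its sum was the highest (9859). No stage finer than E8.5 is given for single embryos in the sources used here, and the part of stage in these values was not tested.

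Extraembryonic endoderm expresses Gata4 and Gata6, and all 16 of its listed genes were detected, with a summed normalized count of 23759.7 to 200674.5 in WT and 13358 to 48272 in Dnmt3b-/- embryos. The sum was highest in WT embryo 2 and lowest in Dnmt3b-/- embryo 3, as were the counts of Gata4. The counts of Gata6 were also lowest in Dnmt3b-/- embryo 3 but highest in Dnmt3b-/- embryo 1 (1769, beside 1559 in WT embryo 2). Of the 16 genes 1 was called lower, beside 18.1% of all tested genes. This was Amn, a receptor subunit of the visceral endoderm with a log2 fold change of -2.59 (adjusted p = 0.0429). Its groups overlapped, with 418, 1545 and 158 normalized counts in WT and 221, 81.4 and 45.2 in Dnmt3b-/- embryos. The median of the list was -1.18 in log2 fold change, or -0.13 without WT embryo 2. The part of these genes in the Gata4 values was not tested. Without WT embryo 2 the log2 fold change of Gata4 was -0.51 (adjusted p = 0.226 with edgeR). With each of the 6 embryos left out in turn it ranged from -1.02 to -0.43. The 3 tested trophoblast genes, where Hand1 is also expressed, had a median of 1.08 with summed counts of 226 to 431.5 in WT and 291 to 803 in Dnmt3b-/- embryos, and their part in the Hand1 values was not tested. The highest sum, in Dnmt3b-/- embryo 1, came mostly from Plac1 with 742 normalized counts, whereas Ascl2 and Elf5 were lowest in that embryo among the Dnmt3b-/- embryos. Of the 5 untested trophoblast genes Tpbpa, Prl3d1 and Prl2c2 had 0 raw counts in every embryo, Prl3b1 had at most 8 and Gcm1 at most 17. None of the trophoblast genes passed the test with edgeR or DESeq2, and 1 did at an unadjusted p below 0.05.

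**Figure D5:**
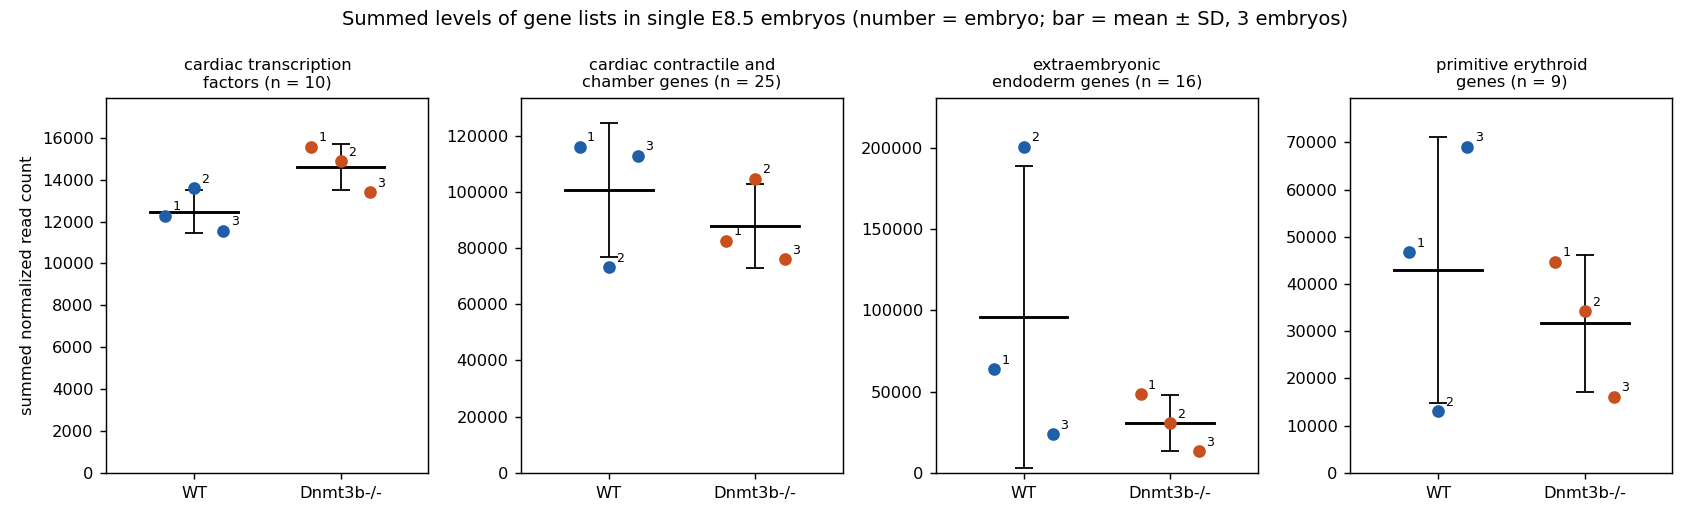
Summed normalized read counts (vertical axes, starting at 0) of 4 gene lists in each WT (blue) and Dnmt3b-/- (orange) embryo, with the number of tested genes in each title and bars for the mean ± SD. WT embryo 2 is the highest for extraembryonic endoderm genes and the lowest for contractile and erythroid genes, but not the lowest for the cardiac transcription factors.

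Among 35 tested genes of other cardiac transcription factors and cofactors, 5 rose, 2 fell and 28 did not pass the test, beside 17.6% of all tested genes that were higher and 18.1% that were lower, with a median log2 fold change of -0.12. The only member past both thresholds was Foxh1, an effector of Nodal signalling, which fell by 1.58 on the log2 scale (adjusted p = 0.0334) and had 2129 normalized counts in WT embryo 2 beside 590.0 and 603 in the other WT embryos. Of the others that passed the test, named here after their values were seen, Mef2a, another MEF2 factor, rose from 2444 to 2909.5 counts in WT to 4281 to 4446 in Dnmt3b-/- embryos (log2 fold change 0.68, adjusted p = 0.00092). Srf, the serum response factor of muscle genes, rose by 0.27 on the log2 scale (adjusted p = 0.0259), and Hey2, Foxc1 and Eya1, which act in the ventricle, the outflow tract and the pharyngeal region, rose by 0.54 to 0.74. Smarcd3, a chromatin remodelling subunit of the heart, fell by 0.70 on the log2 scale (adjusted p = 0.0258). After correction for GC content and length 10 members of this list were higher, beside 12.4% of all tested genes, with a median of 0.12, and Hey2 (adjusted p = 0.104), Foxh1 (adjusted p = 0.177) and Smarcd3 (adjusted p = 0.440) no longer passed the test.

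Of 21 listed signals and receptors of heart development, 2 rose, 5 fell and 14 did not pass the test. Of all tested genes 17.6% were higher and 18.1% lower, and the median log2 fold change of the list was -0.28. Wnt11, a non-canonical Wnt ligand that promotes cardiac fate, was the only member past both thresholds. Its normalized counts were 219, 189 and 207 in WT and 93.9, 109.4 and 58.8 in Dnmt3b-/- embryos, without overlap (log2 fold change -1.23, adjusted p = 0.00911). Among the others, named after their values were seen, the BMP receptor Bmpr1a and the Notch ligand Jag1 rose, and Fgfr1, Wnt5a, Erbb2 and Notch1 fell, by 0.26 to 0.60 on the log2 scale in either direction. After correction for GC content and length Jag1 and Bmp7 were higher and Wnt5a was lower, whereas Bmpr1a, Fgfr1, Erbb2 and Notch1 no longer passed the test, and Wnt11 had a log2 fold change of -0.70 (adjusted p = 0.0761).

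Many contractile and chamber genes are direct targets of these factors. Of 25 such genes, 1 rose, 2 fell and 22 did not pass the test, beside 17.6% of all tested genes that were higher and 18.1% that were lower, with a median log2 fold change of -0.23. Tnnt2, cardiac troponin T, rose from 2909.7 to 4440.2 normalized counts in WT to 5091 to 6747 in Dnmt3b-/- embryos (log2 fold change 0.62, adjusted p = 0.0198). Myl3, a myosin light chain of the ventricle, had 748, 505 and 955 in WT and 301, 448 and 313 in Dnmt3b-/- embryos, and fell by 1.06 on the log2 scale (adjusted p = 0.0129), as did Myl4, an atrial light chain, by 0.69 (adjusted p = 0.0486). The sums of the list were 73116 to 115996.5 in WT and 75977 to 104663 in Dnmt3b-/- embryos, and without WT embryo 2, the lowest, 11 genes were lower, beside 17.6% of all tested genes in that fit. With any other embryo left out 0 to 5 genes of the list were lower, 0 of them without Dnmt3b-/- embryo 3, and no gene was higher without WT embryo 1 or Dnmt3b-/- embryo 2. After correction for GC content and length Tnnt2 still passed the test (adjusted p = 0.0057), Myl3 and Myl4 did not (adjusted p = 0.0839 and 0.296), and the median was 0.02.

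Other tissues where the factors are active were followed by their own lists. The genes called in these lists are given as a description only. Of all tested genes 17.6% were higher and 18.1% lower at the same threshold. Of 15 neural crest and pharyngeal arch genes, which had a median log2 fold change of 0.37, the mesenchymal homeobox gene Prrx1 rose (0.61, adjusted p = 0.0132). Of 9 foregut endoderm genes 2 rose, the forebrain and foregut factor Nkx2-1 (1.64, adjusted p = 0.0111) and the ligand Shh (0.83, adjusted p = 0.0118). Of 9 skeletal muscle and somite genes Tcf15, a basic helix-loop-helix factor of the somite, rose (1.14, adjusted p = 0.00601), of 4 allantois genes Vcam1 rose (1.12, adjusted p = 0.0382), and of 11 posterior Hox genes Hoxa9 (0.83, adjusted p = 0.0303) and Hoxd13 (1.07, adjusted p = 0.0299) rose. Among 10 endothelial genes the VEGF receptor Kdr (-0.46, adjusted p = 0.00633) and Egfl7 (-0.75, adjusted p = 0.0125) fell, while Tie1 had -0.91 and Emcn 0.76 without passing the test. Of the 9 tested primitive erythroid genes 0 passed edgeR, 1 did with DESeq2 and 1 at an unadjusted p below 0.05, with values of -0.84 for Hbb-bh1, 0.13 for Hba-x and -2.25 for Epor. Of the 4 tested motor neuron genes 0 passed with edgeR, with DESeq2 or at an unadjusted p below 0.05, and Mnx1 and Olig2 had -0.28 and 0.74. After correction for GC content and length Nkx2-1, Shh, Tcf15 and Kdr still passed, whereas Prrx1, Vcam1, Hoxa9, Hoxd13 and Egfl7 did not (adjusted p = 0.0507 to 0.355), nor did Amn (adjusted p = 0.115). Other genes were higher only in the corrected fit, beside 12.4% of all tested genes. These were Twist1 (0.93, adjusted p = 0.00277) and Dlx5 (1.35, adjusted p = 0.0432) of the neural crest and arch list. Foxa1 of the foregut (0.80, adjusted p = 0.0422) and Hoxa13 (1.70, adjusted p = 0.0312) were the others.

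The mean profile of the 10 factors over the embryos, as centred log2 levels, was nearly flat, with -0.05, 0.05 and -0.13 in WT and 0.18, 0.10 and -0.16 in Dnmt3b-/- embryos. Gata6 was closest to this mean profile (root mean square difference of 0.128 on the log2 scale over 6 embryos) and Gata4 was the farthest from it (0.545). Among all other tested genes, Kidins220, Ate1, Zfp408, Cgnl1 and Sft2d3 were nearest to the mean profile, with differences of 0.044 to 0.052. None of these 5 passed the test, with log2 fold changes of 0.02 to 0.17.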

How the data were processed

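RNA-Seq libraries were prepared from total RNA of single whole E8.5 embryos after ribosomal RNA depletion with a stranded kit. The authors aligned the reads to mm10 with TopHat2 (2.0.12 per the submitters' processing notes), assigned them to RefSeq exons with HTSeq (0.6.0), and deposited the raw counts. The deposited table also holds a normalized signal for each embryo, and the log2 fold change and adjusted p-value that the authors obtained with DESeq2 (1.4.5), none of which was used. The strand setting of the counting is not given in the sources used here, and exons of Hand1, Mef2c and Gata6 overlap genes on the opposite strand by 2.11%, 6.49% and 1.82% of their length at most.

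Counts of 15114 genes, those whose mean reached 10, were normalized by TMM and compared between genotypes by edgeR 4.0.16 (quasi-likelihood test, R 4.3.3) with Benjamini-Hochberg adjustment. Thresholds were an adjusted p of 0.05, alone or with a fold change above 2. Normalized read counts are scaled to the mean library size. Totals were 41489332 to 58470286 counts per embryo, and the factors had 129 to 3733 raw counts each. Embryos were grouped by their sample titles. GC content and exon length of 23880 genes (99.2%) came from the RefSeq annotation of GRCm38.p6, and the correction fitted splines with 5 degrees of freedom. Alternatives were other filters, scalings, DESeq2 1.42.0, limma 3.58.1, a replicate block and leaving out each embryo. The edgeR fit was tested on simulated data of the same 15114 genes with known changes in 200 genes. It recovered 59% of the genes with a log2 change of 1 and 89% of those with 2, with 14 false calls. The simulated counts held no shift with GC content between the genotypes, and smaller changes were not simulated. The factors and gene lists were chosen with earlier results of these data known. Of each list, genes past both thresholds were named, or otherwise the most abundant and most changed, and the 5 genes nearest to the mean profile; all other names were chosen after their values were seen. The values of some list genes that this rule covers are not reported here.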

Additional observations from a re-analysis of the deposited data

How the results depend on the processing

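Hand2 passed the test in all 15 alternatives, Mef2c in 13, Nkx2-5 and Smyd1 in 12 each. Of 150 values of the 10 factors under the alternatives, 124 kept their direction and side of the threshold. With GC content and length corrected, Nkx2-5 was at 0.02 and Tbx5 at 0.0019 on the log2 scale, and Dnmt3b was at -0.85 (adjusted p = 0.0629). At an adjusted p below 0.05 alone, 0 factors were lower, beside 1586 of all tested genes in place of 2741. With a fold change above 2 as well, 130 genes were lower in place of 571. Past both thresholds were 1 factor and 4 genes of the other lists, in place of 9. Gata6 was at -0.04 with total counts as scaling, which shifted the median of all genes to -0.106, and at -0.0047 with limma. DESeq2 gave 2 lower factors, Nkx2-5 and Gata4, beside 19.9% of all tested genes.

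With 1 embryo left out at a time, the number of higher factors ranged from 2 to 5 and of lower factors from 0 to 2. Beside them, 1795 to 2726 of all tested genes were higher and 1791 to 2660 lower. The factors past both thresholds ranged from 0 to 1, beside 242 to 381 higher and 391 to 774 lower genes of all tested. The genes of the other lists past both thresholds ranged from 5 to 13. The log2 fold change ranged from -1.25 to -0.61 for Dnmt3b, from -0.36 to 0.30 for Tbx5, from -0.23 to 0.16 for Tbx20 and from -0.12 to 0.23 for Gata6. Without WT embryo 1, 0 factors were lower in the edgeR fit, beside 1909 of all tested genes, and 1 factor was lower at an unadjusted p below 0.05.

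Same-numbered embryos were not paired by the data (correlations of their deviations of -0.049, -0.147 and -0.013). With the replicate block, 2 factors were lower, Nkx2-5 and Gata4, and 3 were higher at an adjusted p below 0.05. Beside them, 2239 of all tested genes were lower and 2172 higher at this threshold. With a fold change above 2 as well, 265 genes were higher and 516 lower. Gata6 was at -0.0036 in that fit. With the replicate block and the correction together, 1 factor, Hand2, was higher and 0 were lower at an adjusted p below 0.05. Beside them, 1409 of all tested genes were higher and 1057 lower at this threshold. Nkx2-5 was at 0.0039 and Dnmt3b at -0.75 (adjusted p = 0.0693). With a fold change above 2 as well, 1 factor passed, 111 genes were lower and 4 genes of the other lists passed. The cause of these differences was not tested. With 3 embryos per genotype, factors that did not pass the test may still differ.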
